A study of Mus musculus with 6 samples.

Results

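Motile cilia genes were examined in RNA sequencing libraries of mouse ovarian tissue. A gene was a member if its Ensembl identifier mapped to a protein-coding symbol that began with Dnah, Dnaic, Dnai, Dnaaf, Cfap, Rsph or Tekt followed by a digit, or that was Foxj1, Mcidas, Deup1, Ccdc39, Ccdc40, Ak7, Dynlrb2, Rfx2, Rfx3 or Myb. The rule used names and no measured value, and it gave 75 of the 36727 genes in the counts table. Of these, 74 had a count in at least 1 library, and Rsph6a, a radial spoke protein of sperm, had 0 counts in all 6. The samples were adult females of 135 to 140 days of an F4 inbred Swiss albino strain, and the tissue label gives the ovary as staged by estrous phase. 3 samples had high litter size (replicates 1, 3 and 4), 3 had low litter size (replicates 1, 2 and 5), and they differ in the labels by litter size only. The study's title places them in a search for fitness-related ovarian genes. The labels do not say whether each sample was 1 animal, a pool, or separate preparations. A p-value here therefore reflects only how these libraries vary, which may be technical.

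Motile cilia beat by means of an axoneme, a ring of doublet microtubules around a central pair. Outer and inner dynein arms on the doublets drive the sliding, radial spokes and the central apparatus control it, and tektins and other proteins inside the doublets stabilise them. In the female tract such cilia are carried by the multiciliated cells of the oviduct, which move the egg and lie beside the ovary. Mcidas and Myb act early in the programme of these cells, Deup1 builds the many centrioles, and Foxj1 with the RFX factors Rfx2 and Rfx3 switches on the axonemal genes. Many of the same proteins form the sperm tail, and some members with a cilium-based name are made in most cells.

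Total estimated counts were 17620903 to 24758222 per library. Levels below are CPM, estimated counts scaled to a common library total with TMM factors, and values are always in the order of high replicates 1, 3 and 4, then low replicates 1, 2 and 5. CPM does not correct for gene length, so levels are compared within a gene. Markers of the labelled tissue differed between libraries of the same group. The summed level of 8 granulosa cell markers was 31.5, 17.8 and 430 CPM across the high libraries, and 284, 25.8 and 233 CPM across the low libraries, and Fshr, the follicle-stimulating hormone receptor that defines these cells, had 0 counts in high replicates 1 and 3. The summed level of 5 luteal and steroidogenic markers was 21.9, 32.0 and 9593 CPM across the high libraries, and 733, 27.8 and 3307 CPM across the low libraries. In bulk tissue, fewer cells of a type and less RNA per cell cannot be told apart.

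Most motile cilia genes had their highest level in a single library, high replicate 4, and the next highest often in low replicate 5. Of the 74 members with a count, 60 (81.1%) were highest in high replicate 4, where 20.4% of the 25759 genes with a count were highest. In 35 members (47.3%) low replicate 5 came second to it, an order seen in 5.18% of all genes with a count. The median of the 74 members, as log2(CPM + 0.5) centred per gene on its mean over the 6 libraries, was 1.51 in high replicate 4 and 0.10 in low replicate 5. It lay from -0.31 to -0.48 in the other 4 libraries, 2 of each group. The heat map of members by library shows the column of high replicate 4 apart from both remaining libraries of its own group.

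**Figure D1:**
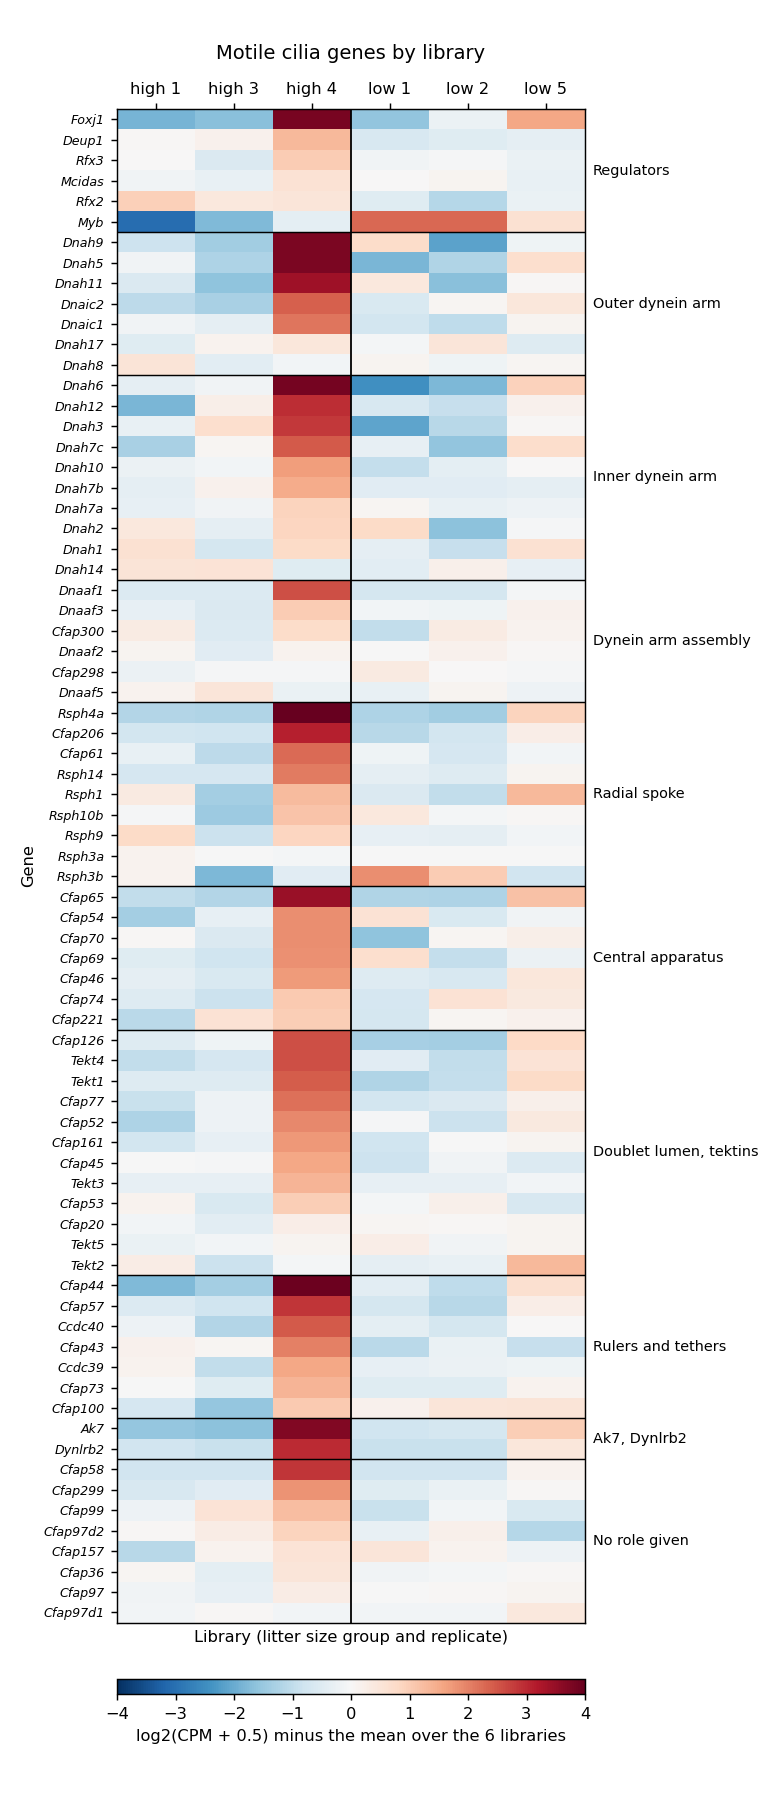
Rows are the 74 members with a count, ordered by role, and columns are the 6 libraries, split by a line into high and low litter size. Colour is log2(CPM + 0.5) minus the gene's mean over the libraries, from blue (low) to red (high). High replicate 4 holds the highest value of 60 members, and Myb and Rsph3b are red in low replicates 1 and 2.

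Among the regulators, Foxj1, the forkhead factor that defines motile ciliated cells (ENSMUSG00000034227, chromosome 11, 116330704 to 116335399, GRCm38), had 0.716, 0.874 and 60.2 CPM across the high libraries, and 0.982, 3.20 and 12.2 CPM across the low libraries. High replicate 4 was above, and high replicates 1 and 3 below, every low library, so the groups overlapped. Within the high group, Foxj1 was 76.5 times as high in high replicate 4 as in high replicates 1 and 3 pooled (95% counting interval 52.6 to 116). Within the low group it was 5.70 times as high in low replicate 5 as in low replicates 1 and 2 (4.43 to 7.41). Such intervals cover counting error only. The high minus low log2 fold change of Foxj1 was 1.91 (SE 1.73), and without high replicate 4 it was -2.81.

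Deup1, which scaffolds centriole amplification (chromosome 9, 15559864 to 15627933), had 0.767, 0.874 and 2.51 CPM across the high and 0.289, 0.373 and 0.468 CPM across the low libraries. All 3 high libraries were above all 3 low libraries, on counts of 5 to 50 per library. The log2 fold change was 1.85 (SE 0.63) and did not pass the test over all genes (edgeR adjusted p = 0.294). Mcidas, the geminin-family activator of multiciliation (chromosome 13, 112993845 to 113000394), had counts of 1, 0 and 8 in the high and 2, 3 and 0 in the low libraries. These counts were too few for a test.

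Rfx2 did not follow Foxj1 across the libraries, and Rfx3 shared its highest library, high replicate 4, but not its second highest. Rfx2, a winged-helix factor of ciliary promoters (chromosome 17, 56775897 to 56831013), had 13.2, 8.93 and 9.35 CPM across the high and 4.56, 2.72 and 5.30 CPM across the low libraries. It was highest in high replicate 1, and the groups did not overlap. Its mean was 10.5 ± 2.38 CPM (SD, n = 3) with high and 4.19 ± 1.33 CPM (SD, n = 3) with low litter size (log2 fold change 1.32, SE 0.37, edgeR adjusted p = 0.231). Rfx3 (chromosome 19, 27761721 to 28011166) had 13.9, 9.05 and 28.4 CPM across the high and 12.6, 13.5 and 11.5 CPM across the low libraries, so high replicates 1 and 4 were above the low range, high replicate 1 by a small margin, and high replicate 3 was below it.

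Myb, a proto-oncogene factor that acts in multiciliated cell precursors and also in blood cell progenitors (chromosome 10, 21124935 to 21160984), had the opposite order of groups. Its level was 2.61, 6.99 and 19.2 CPM across the high and 126, 126 and 39.1 CPM across the low libraries. Every high library was below every low library, and the lowest low library was low replicate 5, where Foxj1 was highest of its group. Within the high group the relation was reversed, since Myb was highest in high replicate 4, at 19.2 CPM, as Foxj1 was. The means were 9.58 ± 8.57 and 97.0 ± 50.2 CPM (SD, n = 3; log2 fold change -3.34, SE 0.82, edgeR adjusted p = 0.198). The 10 listed simple epithelium markers summed to 534, 515 and 956 CPM across the high and 4530, 2940 and 1840 CPM across the low libraries, with 9 of 10 log2 fold changes negative, and their part in the Myb values was not tested.

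**Figure D2:**
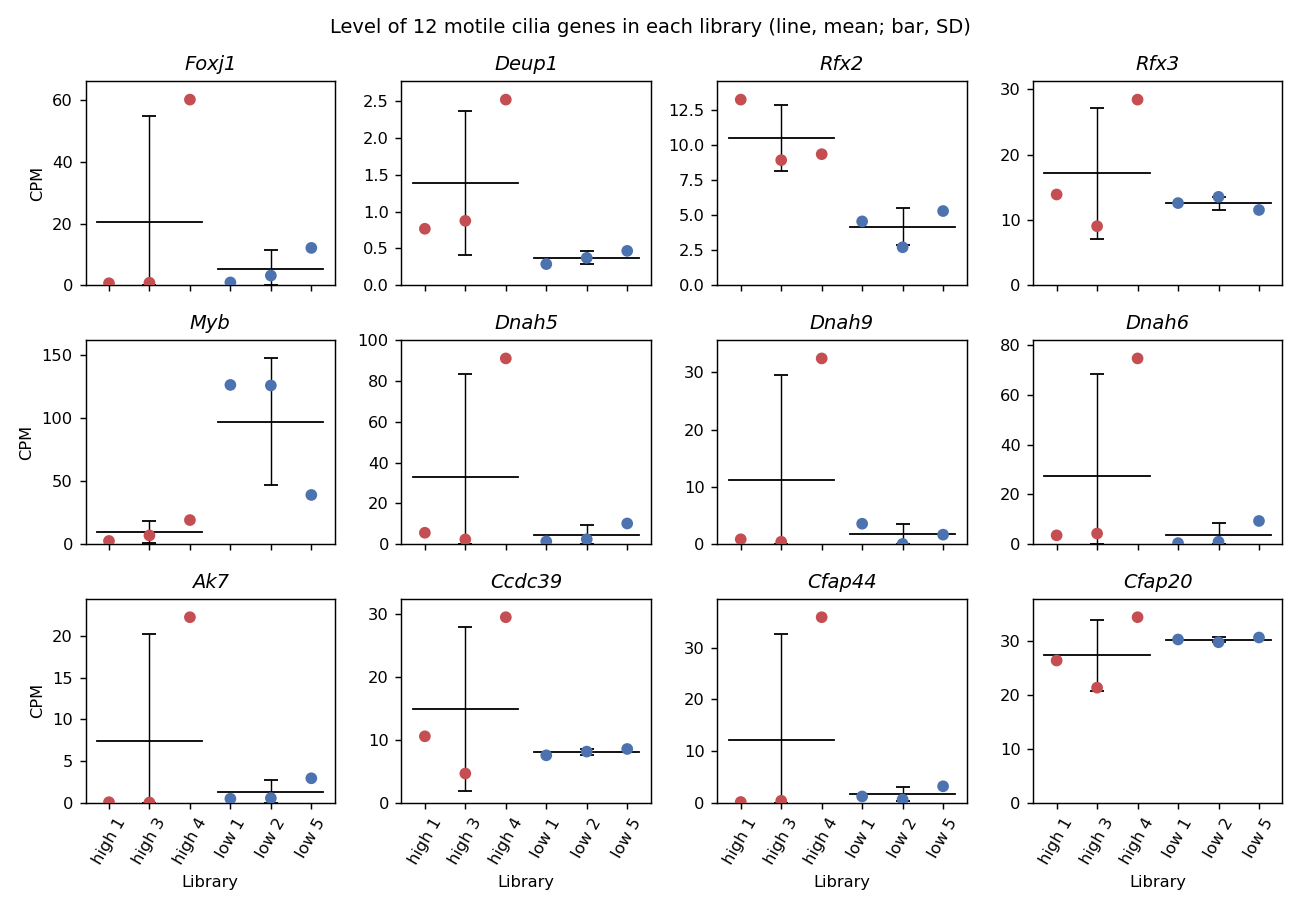
Each panel gives the CPM of 1 gene in the 3 high (red) and 3 low (blue) litter size libraries, with the group mean as a line and the SD as a bar, which is drawn down to 0 at most. Foxj1, the dynein chains, Ak7 and Cfap44 stand out in high replicate 4, Myb is lower in every high library and Rfx2 higher, and Cfap20 differs little between libraries.

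Most outer dynein arm chains were highest in the library where Foxj1 was highest, 5 of 7 members. Dnah5, an outer arm heavy chain (chromosome 15, 28203752 to 28472052), had 5.62, 2.37 and 91.0 CPM across the high and 1.39, 2.45 and 10.2 CPM across the low libraries. Dnah9, the distal outer arm heavy chain (chromosome 11, 65831282 to 66168551), had 0.869, 0.437 and 32.4 CPM across the high and 3.58, 0.0533 and 1.68 CPM across the low libraries. High replicate 4 was the highest library for both, but the second was low replicate 5 for Dnah5 and low replicate 1 for Dnah9. Dnah11, another outer arm heavy chain, was 36.9 times as high in high replicate 4 as in high replicates 1 and 3 (95% counting interval 23.8 to 60.2). The intermediate chains Dnaic1 and Dnaic2 were 9.84 and 21.7 times as high. Dnah8 and Dnah17, the outer arm heavy chains of sperm, were highest in high replicate 1 and low replicate 2 respectively, and their highest library was 2.10 and 2.26 times the lowest. All 7 outer arm members were tested, and all 7 log2 fold changes were positive, with a median of 2.45. Without high replicate 4, 2 were positive and 5 negative, with a median of -0.26.

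Of the 10 inner arm members, 9 were highest in high replicate 4 and 4 had low replicate 5 second. Dnah6 (chromosome 6, 73017606 to 73221651) had 3.58, 4.31 and 74.6 CPM across the high and 0.462, 1.01 and 9.35 CPM across the low libraries. Dnah3 (chromosome 7, 119922671 to 120095280) had 2.04, 4.49 and 22.0 CPM across the high and 0.231, 0.960 and 2.73 CPM across the low libraries. For Dnah3 the groups overlapped by 1 library, since low replicate 5 was above high replicate 1. Dnah2 had 6.75, 3.75 and 9.25 CPM across the high and 8.61, 1.23 and 4.75 CPM across the low libraries. For it high replicate 4 did not stand apart, and low replicate 2 was well below the rest. Dnah14 was lowest in high replicate 4, at 1.26 CPM. Dnah7a, Dnah7b and Dnah7c are close paralogs on chromosome 1, so how their reads were divided is uncertain.

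Factors that assemble dynein arms in the cytoplasm differed in how far high replicate 4 stood apart. Dnaaf1, a leucine-rich repeat assembly factor (chromosome 8, 119575235 to 119598454), had counts of 1, 1 and 86 in the high and 0, 0 and 7 in the low libraries. Its level in high replicate 4 was 76.9 times that in high replicates 1 and 3, on 2 counts in those libraries (95% counting interval 20.7 to 645). Dnaaf3 and Cfap300 were 3.24 and 1.71 times as high there (95% counting intervals 2.37 to 4.47 and 1.42 to 2.06). In contrast, Dnaaf2, Dnaaf5 and Cfap298, which are also assembly factors, had a highest library at 1.57, 1.75 and 1.53 times the lowest. Cfap298 had 16.9, 19.0 and 19.2 CPM across the high and 25.8, 19.8 and 19.3 CPM across the low libraries. These groups did not overlap, but the highest high and the lowest low library differed by less than the spread within either group, and the log2 fold change was -0.24 (SE 0.21).

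Radial spoke members differed among themselves. Rsph4a, a spoke head protein (chromosome 10, 33905111 to 33916021), had 0.204, 0.187 and 27.2 CPM across the high and 0.173, 0.107 and 2.46 CPM across the low libraries. It was 139 times as high in high replicate 4 as in high replicates 1 and 3 (95% counting interval 66.8 to 346) and 17.7 times as high in low replicate 5 as in low replicates 1 and 2 (7.20 to 56.4). Rsph1, another head protein, had 4.19, 0.936 and 8.35 CPM across the high and 1.96, 1.39 and 8.65 CPM across the low libraries, and low replicate 5 was its highest. Rsph3a, a spoke stalk protein (chromosome 17, 7945614 to 7979824), lay between 32.5 and 37.4 CPM in all 6 libraries. Rsph3b (chromosome 17, 6904413 to 6948682) had 84.8, 21.7 and 55.8 CPM across the high and 281, 156 and 44.5 CPM across the low libraries, highest in low replicates 1 and 2, as Myb was. Rsph3a and Rsph3b are close paralogs, so the split of reads between them is uncertain.

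All 7 central apparatus members were highest in high replicate 4. Cfap65 (chromosome 1, 74902071 to 74935599) had 0.409, 0.312 and 19.2 CPM across the high and 0.289, 0.267 and 3.55 CPM across the low libraries. Cfap54 (chromosome 10, 92775619 to 93081618) had 1.89, 4.37 and 21.9 CPM across the high and 8.72, 3.52 and 5.15 CPM across the low libraries. Cfap69 had 10.3 CPM and Cfap54 8.72 CPM in low replicate 1, their second highest library in both cases. Cfap74 had a log2 fold change of -0.06 (SE 0.68) although high replicate 4 was its highest library.

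Of the 12 tektins and doublet proteins, 10 were highest in high replicate 4, and 8 of them had low replicate 5 second. Tekt1 (chromosome 11, 72344722 to 72362442) had counts of 6, 5 and 115 in the high and 0, 2 and 38 in the low libraries. Tekt2 had 4.60, 1.75 and 3.37 CPM across the high and 2.71, 2.88 and 9.55 CPM across the low libraries, and here low replicate 5 stood alone. Cfap20, an inner junction protein of the doublet (chromosome 8, 95420249 to 95434869), lay between 21.4 and 34.4 CPM. Cfap45 had 3.12, 3.0 and 10.2 CPM across the high and 1.56, 2.83 and 1.99 CPM across the low libraries, and its groups did not overlap (log2 fold change 1.35, SE 0.61).

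The molecular rulers and tethers all peaked in high replicate 4. Ccdc39 and Ccdc40, which set the spacing of arms and spokes along the doublet, differed in how far it stood apart. Ccdc39 (chromosome 3, 33812362 to 33844310) had 10.6, 4.68 and 29.5 CPM across the high and 7.57, 8.16 and 8.57 CPM across the low libraries. Ccdc40 (chromosome 11, 119228572 to 119265238) had 1.69, 0.624 and 13.3 CPM across the high and 1.44, 1.07 and 2.07 CPM across the low libraries. High replicate 4 was 3.72 times the other high libraries for Ccdc39 (95% counting interval 3.22 to 4.30) and 11.0 times for Ccdc40 (7.93 to 15.5), and these intervals do not meet.

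Cfap43 and Cfap44, which tether the inner arm motor heads, also differed from each other. Cfap44 (chromosome 16, 44394796 to 44482428) had 0.204, 0.437 and 35.8 CPM across the high and 1.27, 0.693 and 3.24 CPM across the low libraries, so high replicates 1 and 3 were below every low library. Cfap43 (chromosome 19, 47736857 to 47919287) had 9.0, 8.24 and 33.1 CPM across the high and 3.47, 6.45 and 3.90 CPM across the low libraries, so every high library was above every low library. The log2 fold changes were 2.80 (SE 1.79) for Cfap44 and 1.87 (SE 0.63) for Cfap43 with all libraries, and -2.47 and 0.88 without high replicate 4.

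Ak7, the adenylate kinase of motile cilia (chromosome 12, 105705976 to 105782447), had 0.102, 0.0624 and 22.2 CPM across the high and 0.520, 0.587 and 2.96 CPM across the low libraries. On 3 counts in high replicates 1 and 3 together, it was 264 times as high in high replicate 4 (95% counting interval 89.6 to 1283). Dynlrb2, a dynein light chain (chromosome 8, 116504974 to 116515915), had counts of 1, 0 and 138 in the high and 0, 0 and 20 in the low libraries. In low replicate 5 it was at least 9.37 times as high as in low replicates 1 and 2, taking 3 counts over those 2 libraries as the limit that 0 counts allow. With the counting error of both sides the lower end of the 95% interval was 6.94. Cfap58 had 0 counts in high replicates 1 and 3 and in low replicates 1 and 2, 113 counts in high replicate 4 and 11 in low replicate 5. Cfap58, and the members Rsph4a, Cfap65, Tekt1 and Dnaaf1 above, were chosen after their values were seen.

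Not all members differed much between libraries. For 7 of the 55 tested members the highest library was under 2 times the lowest, in the order Rsph3a, Cfap298, Dnaaf2, Cfap97, Cfap20, Dnaaf5 and Cfap36. These 7 are 12.7% of tested members, against 37.8% of all 16455 tested genes. Among them, Cfap97 and Cfap20 still had high replicate 4 highest and low replicate 5 second, and Cfap36 had high replicate 4 highest. At the other end, 15 of the 55 (27.3%) were over 10 times as high in high replicate 4 as in high replicates 1 and 3, against 1.79% of all tested genes. The median of that ratio was 3.69 over tested members and 0.94 over all tested genes. The matching ratio of low replicate 5 to low replicates 1 and 2 had medians of 1.23 and 0.98.

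Genes entered the test between litter size groups only if enough libraries had about 10 counts, and this left 55 members. The 20 members not tested included 16 with at least 10 counts in high replicate 4, of which 10 also had at least 10 in low replicate 5, and 4 under 10 counts in every library (Cfap97d1, Tekt5, Rsph6a and Mcidas). A gene present in high replicate 4 and low replicate 5 alone thus did not enter the test, and no count over the 55 speaks for all 75.

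No motile cilia gene passed the test between the groups (0 of 55, edgeR quasi-likelihood adjusted p under 0.05), where 1 of 16455 genes, 0.00608%, passed. The smallest adjusted p of a member was 0.198, that of Myb. At an unadjusted p under 0.05 with edgeR, 4 members were higher in the high group (Rfx2, Deup1, Cfap43 and Dnah3), or 7.27% against 6.56% of all tested genes, and 1 was lower (Myb), or 1.82% against 7.82%. These shares are near or below those of all genes. With DESeq2, 1 member was higher (Rfx2, adjusted p = 0.0187) against 2.15% of all tested genes, and 1 lower (Myb, adjusted p = 0.000702) against 4.08%. DESeq2 left the adjusted p undefined for 6 members, Dnah11, Dnah5, Foxj1, Ak7, Dnah6 and Cfap44.

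The high libraries lay entirely above the low libraries for 4 tested members (Rfx2, Cfap45, Deup1 and Cfap43), or 7.27% against 8.75% of all tested genes. They lay entirely below for 2 (Myb and Cfap298), or 3.64% against 10.8%. The log2 fold changes of the 55 members were positive for 45 and negative for 10, with a median of 0.79 and a range from -3.34 to 2.91, beside a median of 0.07 over all tested genes. Their standard errors had a median of 0.71, against 0.36 over all tested genes. Without high replicate 4 the members' median was -0.25, and 26 of the 45 positive log2 fold changes became negative, among them those of Foxj1, Ak7, Cfap44, Dnah5 and Dnah9. With high replicate 4 and low replicate 5 both left out, chosen after the data were seen, the median was 0.07 over 51 tested members, 26 positive and 25 negative, and 0 passed.

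**Figure D3:**
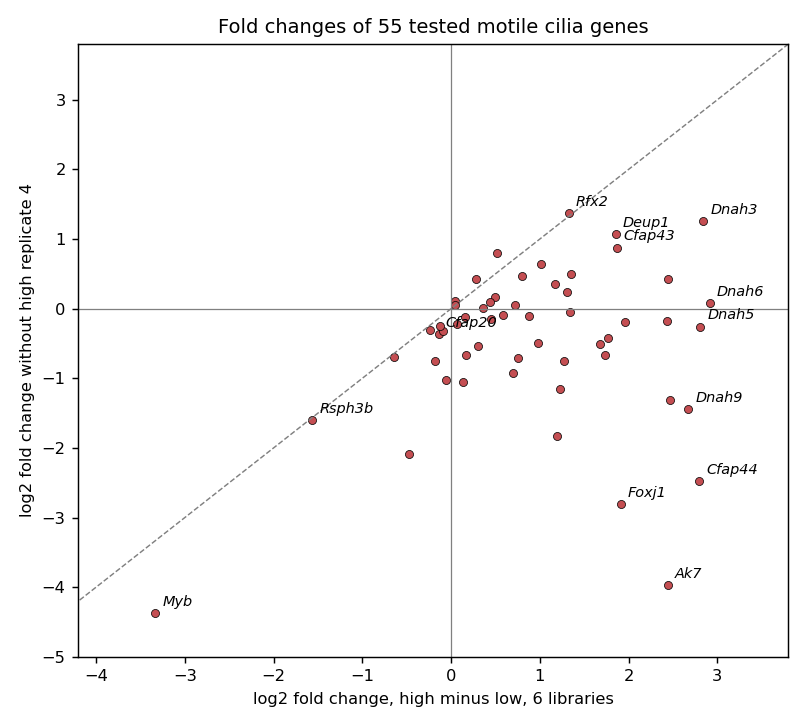
Each point is 1 of the 55 tested members, with its log2 fold change (high minus low litter size) over all 6 libraries on the horizontal axis and without high replicate 4 on the vertical axis. The dashed line marks equal values. Foxj1, Ak7 and Cfap44 go from above 1.9 to below -2.4, while Rfx2 and Rsph3b stay near the line and Myb stays negative.

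Ciliated cell genes outside the name rule had a like order of libraries. Of 50 such genes listed, 49 were matched, 43 of the 49 were highest in high replicate 4, and 26 of these had low replicate 5 second. None of the 34 tested passed (0 of 34 with edgeR; 29 positive and 5 negative log2 fold changes, median 1.33). Without high replicate 4, 13 were positive and 21 negative, with a median of -0.18. The 2 of highest mean level, Tppp3 and the dynein light chain Dnal1, were at 33.8 to 80.1 and 17.2 to 30.7 CPM. Tppp3 was highest in low replicate 1, and Dnal1 was highest in high replicate 4 but second in high replicate 1. Hydin, a central apparatus protein, had 3.37, 4.93 and 24.2 CPM across the high and 2.25, 1.60 and 4.56 CPM across the low libraries. Sntn, a ciliary tip protein, had counts of 0, 0 and 278 in the high and 0, 0 and 27 in the low libraries. Hydin and Sntn were named after their values were seen.

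Genes of intraflagellar transport differed less between libraries in their summed level, and genes of centriole formation differed among themselves. The 24 intraflagellar transport genes, which carry cargo in all cilia, summed to 726, 560 and 805 CPM across the high and 650, 676 and 699 CPM across the low libraries, with 13 of 24 highest in high replicate 4 and a median log2 fold change of 0.12. The 15 genes of multiciliation and centriole formation outside the rule summed to 305, 235 and 308 CPM across the high and 285, 261 and 266 CPM across the low libraries, with 7 of 15 highest in high replicate 4. That sum is mostly of broadly expressed genes such as Pcm1, a centriolar satellite protein, at up to 124 CPM. Some multiciliation genes among them were far higher in high replicate 4 than in the other high libraries. Ccdc78, a centriole amplification protein, was 66.2 times as high there as in high replicates 1 and 3 (95% counting interval 29.9 to 182). Ccno, the cyclin of multiciliated precursors, was 12.3 times as high (5.82 to 29.9), though its 2.77 CPM there was near the 1.99 CPM of low replicate 5. Trp73, a p53 family factor upstream of Foxj1, was 7.06 times as high (4.22 to 12.4). Ccdc78, Ccno and Trp73 were named after their values were seen. None of these lists held a gene that passed (0 of 24 and 0 of 13 tested with edgeR).

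The label of the gene set as oviduct epithelium was checked against oviduct markers, and the evidence was mixed. Ovgp1, the oviductal glycoprotein of secretory cells (chromosome 3, 105973711 to 105987423), had 13.8, 149 and 1380 CPM across the high and 7.39, 6.51 and 421 CPM across the low libraries. Its 2 highest libraries were those of Foxj1, but high replicate 3, at 149 CPM of Ovgp1, had 0.874 CPM of Foxj1. The other 5 secretory markers did not share that order. Krt7 was highest in low replicate 1, at 724 CPM, and Pax8, the Mullerian duct factor, had 21.5, 10.9 and 20.2 CPM across the high and 58.5, 38.7 and 23.3 CPM across the low libraries. No marker of this list was at 0 in any library, and the list's sum ran from 219 to 1655 CPM across the high and from 1009.5 to 1197 CPM in the low group. The 4 oviduct Hox genes summed to 157, 117 and 57.7 CPM across the high and 83.1, 89.8 and 85.3 CPM across the low libraries. That sum was lowest in high replicate 4, as Hoxa9 was, but Hoxb8, Hoxc8 and Hoxd9 were lowest in other libraries. The members are therefore called motile cilia genes here, without a tissue of origin.

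The sum of the oocyte markers was also highest in high replicate 4 and next highest in low replicate 5. That order held for 5 of the 8 genes, while Gdf9 and Zp3 had it reversed and Oog1 had low replicate 1 second. The 8 oocyte markers summed to 2.04, 3.93 and 77.1 CPM across the high and 16.2, 4.64 and 48.3 CPM across the low libraries, and Zp2 and Zp3 had 0 counts in at least 1 library. In low replicate 1, granulosa markers summed to 284 CPM, and the median centred level of the members with a count was -0.41. Foxj1 was at 0.982, Ovgp1 at 7.39 and Ak7 at 0.520 CPM there. Other members, among them Dnah2, Dnah9, Dnah11, Cfap54 and Cfap69, had low replicate 1 as their second highest library. Stratified epithelium markers, 6 genes, summed to 171, 90.5 and 479 CPM across the high and 17.2, 15.3 and 3.27 CPM across the low libraries. This sum was highest in high replicate 4 but lowest in low replicate 5. Of the 6 genes, 3 were highest in high replicate 4. Krt15 and Dsc3 were highest in high replicate 1 and Trp63 in high replicate 3, and Krt15 and Trp63 were lowest in low replicate 2. Adipocyte markers, 9 genes, ran from 520 CPM in low replicate 1 to 33741 CPM in high replicate 3. The 9 uterus and cervix genes summed to 716, 972 and 4898 CPM across the high and 19466, 7309 and 4383 CPM across the low libraries. Their sum is mostly Ltf and Lcn2, secreted proteins of glands and neutrophils, which were highest in low replicates 1 and 2, as Myb and Rsph3b were. All other genes of the list, the Hox genes and Foxa2, were highest in high replicate 1, where Hoxa10 was at 293 and Hoxa11 at 205 CPM. No gene of these 3 lists passed (0 of 6, 0 of 9 and 0 of 8 tested with edgeR). The part of these cell types, and of ovarian or oviduct cells, in the levels of motile cilia genes was not tested.

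**Figure D4:**
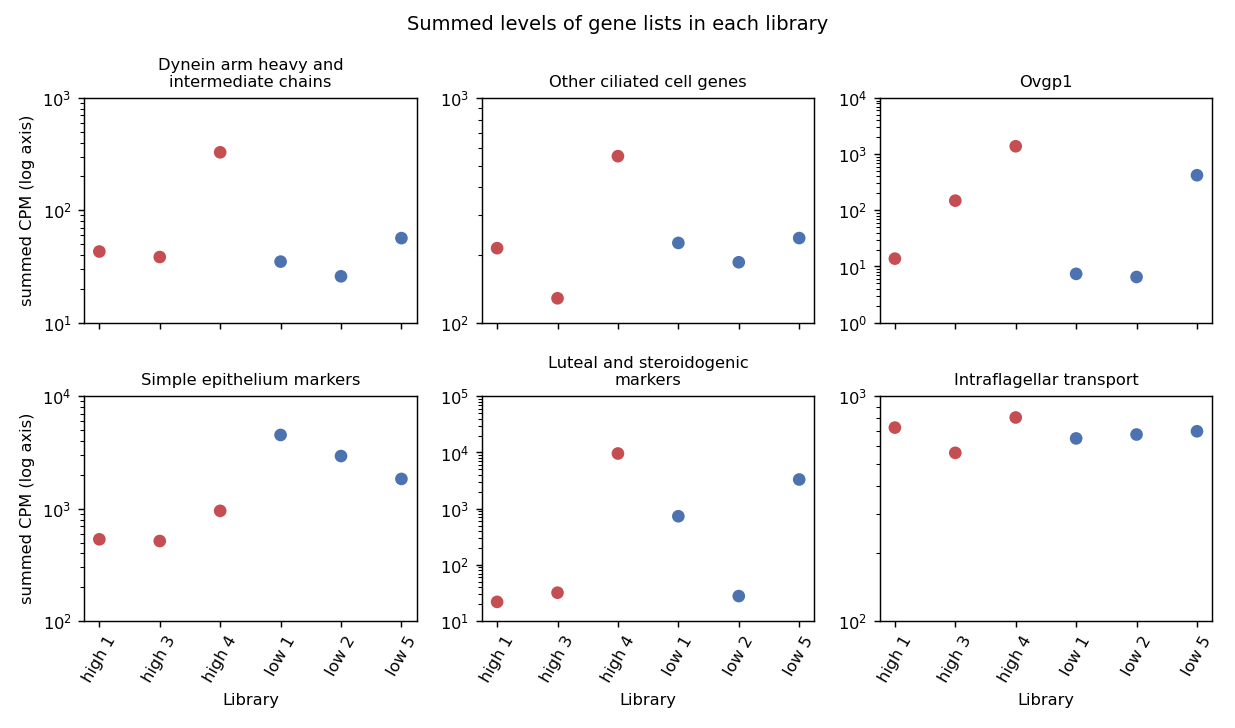
Summed CPM, on log axes, of 6 gene groups in the 3 high (red) and 3 low (blue) litter size libraries. Dynein arm chains, Ovgp1 and luteal markers share high replicate 4 as their highest and low replicate 5 as their second library, whereas luteal markers reach 733 CPM in low replicate 1, and simple epithelium markers are highest in low replicate 1.

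The proximal promoters of members were searched for binding motifs of the regulators, since most members with a count were highest in the same library. Shared regulation was not tested. RefSeq promoter sequences, 250 bases before to 50 bases after the start on GRCm38.p6, were matched by symbol for 62 of the 75 members, and 13 had no entry used here (Cfap157, Cfap299, Cfap53, Cfap54, Cfap65, Cfap73, Cfap97, Dnaaf1, Dnah3, Foxj1, Rsph1, Rsph10b and Rsph4a). The 14-base X-box consensus of RFX factors, searched on both strands, was found in 14 of the 62 (22.6%) and in 2.15% of all 27025 genes with a promoter. The RFX core site GTTGCC, which the X-box can contain, was found on either strand in 26 of 62 (41.9%) and in 14.1% of all genes. The forkhead site GTAAACA was found in 6 of 62 (9.68%) and in 4.05%. A match is a description of letters and not of binding.

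The X-box windows below are shown because they come both from members that stood apart in high replicate 4 and from members that did not. Each is read 5′ to 3′ on the gene's strand, with the consensus match in capitals. Cfap44 (chr16:44394742-44394795, plus strand), Tekt1 (chr11:72361883-72361927, minus strand), Cfap57 (chr4:118620775-118620818, minus strand), Cfap52 (chr11:67965643-67965688, minus strand) and Deup1 (chr9:15627910-15627963, minus strand) were highest in high replicate 4. Cfap36 (chr11:29247274-29247327, minus strand) and Dnaaf2 (chr12:69198430-69198476, minus strand) had a highest library under 2 times the lowest. Cfap57, Cfap52 and Cfap36 were chosen after their values were seen.
Cfap44: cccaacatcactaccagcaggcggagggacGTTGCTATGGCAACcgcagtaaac
Tekt1: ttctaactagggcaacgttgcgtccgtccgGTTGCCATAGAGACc
Cfap57: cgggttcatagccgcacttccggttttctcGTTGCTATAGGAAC
Cfap52: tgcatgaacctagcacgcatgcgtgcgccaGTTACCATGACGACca
Deup1: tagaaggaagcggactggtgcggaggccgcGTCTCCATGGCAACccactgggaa
Cfap36: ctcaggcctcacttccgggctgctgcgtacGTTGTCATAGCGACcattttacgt
Dnaaf2: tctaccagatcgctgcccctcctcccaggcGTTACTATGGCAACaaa

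The match began 50 or fewer bases before the start in 10 of the 14 genes. It began 27 bases before it in Cfap44, 15 in Tekt1, 3 in Cfap57, 16 in Cfap52, 25 in Cfap36, 17 in Dnaaf2 and 87 in Deup1. Of the 14 genes with a match, 12 were highest in high replicate 4, a share near that of all members with a count (60 of 74). The 2 others were Rfx2, highest in high replicate 1, and Dnaaf2, highest in low replicate 2. Cfap36, one of the 12, and Dnaaf2 had a highest library under 2 times the lowest. Cfap44 was 116 times as high in high replicate 4 as in high replicates 1 and 3 (95% counting interval 64.4 to 233), whereas Cfap36 was 1.52 times as high (1.39 to 1.67). An X-box match was thus present in members with a large and with a small ratio.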

How the data were processed

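Polyadenylated RNA of 6 ovarian samples, 3 of high and 3 of low litter size, was sequenced. The deposited values are estimated counts per gene, taken as rounded to whole numbers from the values. Per the submitters' processing notes, Trim Galore, kallisto, DESeq2 and GRCm38 were used, with no versions; the annotation is not stated in those notes. Symbols matched 35869 of 36727 genes, and gene types and coordinates are from GENCODE M21 (GRCm38). Total counts, 17620903 to 24758222, set 1 count at 0.0404 to 0.0568 CPM before TMM scaling.

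Genes were kept by filterByExpr (minimum count 10, minimum total 15), TMM-normalized and tested with edgeR 4.0.16 (quasi-likelihood F test, R 4.3.3) for high minus low litter size; p-values were adjusted by Benjamini-Hochberg over 16455 genes at a threshold of 0.05. The SE is the log2 fold change over the root of F. DESeq2 1.42.0 and limma 3.58.1 were alternatives, with other scalings, filters and each library left out. The fit was tested on simulated data. Ratios of counts have exact conditional binomial 95% intervals. Motif searches used Python 3.11.15.

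The members, role groups and marker lists were chosen with earlier results of these data known. Named genes are the 10 genes spelled out in the membership rule, up to 3 tested members of highest mean CPM per role, the 3 of smallest p in each direction, and the 2 highest members of other lists; exceptions are stated. Of the lists not described in the report, all members had positive log2 fold changes for mesothelium (5, median 1.21) and macrophages (6, median 0.23), and negative for smooth muscle (7, median -0.91). Of the oviduct Hox genes, 3 of 4 were positive (median 0.47). None passed (0 in each with edgeR).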

Additional observations from a re-analysis of the deposited data

How the results depend on the processing

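Of all genes, 1 passed with the main settings, and 1026 passed with DESeq2, 631 with the edgeR likelihood ratio test, 3 with limma voom, 2 with library size alone, 0 without both high replicate 4 and low replicate 5 (chosen after seeing the data), and 0 to 1 with 1 library left out. Of motile cilia genes, 0 passed, and 2 did with DESeq2, 1 with the likelihood ratio test and 0 in each fit with 1 library left out. Their median log2 fold change was 0.79, ran from -0.25 (without high replicate 4) to 1.44 (without high replicate 1) with 1 library left out, and was 0.0675 without both libraries. The other scalings, filters and tools gave 0.42 to 1.17. Of the named genes, 3 changed sign with another tool or scaling, Cfap74 to 0.0188 with library size alone, and Ak7 to -0.64 and Foxj1 to -0.0447 with limma voom. With both libraries left out, log2 fold changes were -0.0547 for Ccdc39, -0.12 for Ccdc40, -1.63 for Cfap44, -0.995 for Cfap54, -0.80 for Cfap69, -1.13 for Dnah11, -1.47 for Dnah9, -1.41 for Foxj1, -0.20 for Rfx3 and 0.17 for Tekt2.

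With 1 library left out, the log2 fold change ran from -3.97 to 3.74 for Ak7, -0.11 to 1.30 for Ccdc39, -0.42 to 2.28 for Ccdc40, -2.47 to 3.62 for Cfap44, -0.92 to 1.19 for Cfap54, -0.70 to 1.32 for Cfap69, -1.31 to 3.02 for Dnah11, -0.26 to 4.09 for Dnah5, -1.44 to 3.65 for Dnah9, -2.81 to 3.29 for Foxj1 and -0.15 to 0.75 for Rfx3, with the lowest value of each without high replicate 4. It ran from -0.67 to 1.42 for Rsph1, -1.02 to 0.29 for Cfap74, -0.99 to 0.21 for Tekt2, -0.0212 to 1.13 for Dnah2, -0.37 to 0.0059 for Cfap20, -0.24 to 0.0497 for Dnaaf2 and -0.0297 to 0.0584 for Rsph3a. Myb (-4.37 to -2.88), Rfx2 (1.09 to 1.53), Deup1 (1.07 to 2.15), Cfap43 (0.88 to 2.19), Dnah3 (1.26 to 3.98) and Rsph3b (-2.04 to -0.88) kept their sign in these 6 fits. No paired analysis was possible because replicate 1 is the only number found in both groups. With no filter, 74 members were tested and 0 passed. Members under 10 counts in every library, Mcidas among them, are limited by depth.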
